A study of Mus musculus with 32 samples.

Results

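The genes described here encode 6 S100 proteins (S100a4, S100a6, S100a8, S100a9, S100a10 and S100a11) and 4 annexins (Anxa1, Anxa2, Anxa3 and Anxa5), 10 of the 53801 gene IDs in the deposited tables of mouse quadriceps RNA. They were picked by symbol, with no threshold on any value, but with earlier results of these data known; their genotype differences are therefore a description, and the p-values beside them are no independent support. All 10 passed the filter of at least 1 TPM (transcript abundance scaled for transcript length and library total) in at least 4 libraries, which 12817 gene IDs passed. Quadriceps came from 32 mice in 8 groups of 4: wild type (WT) or Col6a2-/-, 5 or 25 weeks old, female or male, with separate mice at each age and 1 library per mouse. Col6a2-/- mice were homozygous for the knockout allele Col6a2tm1(KOMP)Vlcg, made in C57BL/6N and crossed for 5 generations to C57BL/6J. Both genotypes came from Col6a2+/- parents, and no group received a treatment. Col6a2 encodes a chain of collagen VI, a protein of the matrix around muscle fibres, and the allele is carried by every cell of the animal.

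Among the libraries, Col6a2 was at 19.9 to 51.2 TPM in WT and at most 0.171 TPM in Col6a2-/- mice at 5 weeks, and at 6.60 to 13.6 TPM against at most 0.0344 TPM at 25 weeks (two-sided exact permutation p = 0.000155 at each age, the smallest these groups of 8 can give). The 8 mature fibre markers, which check the tissue label, summed to 20062 to 32407 TPM per library. Depth could only be inferred, as the ratio of coverage to FPKM, which ran from 6.78 to 13.7 with a median of 8.95. It was lower at 25 than at 5 weeks in WT (medians 7.58 and 11.1). In Col6a2-/- mice the medians were 8.44 at 25 and 8.95 at 5 weeks, the latter below that of WT. The part of depth in the genotype differences was not tested. Col6a2-/- females 2 and 4 at 5 weeks held the highest and the lowest level of their group, respectively, for 7 of the 7 genes described below as higher. No labels name a batch.

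S100 proteins are small calcium-binding proteins of the EF-hand type that change shape with calcium and then bind targets, and several are also secreted and act on cell-surface receptors. Annexins bind negatively charged phospholipids when calcium is present, and in muscle several of them gather at injured stretches of the fibre membrane during its repair. The families meet in complexes: S100A10, which has lost the ability to bind calcium, joins annexin A2, and S100A11 joins annexin A1. The pair S100A8 and S100A9 forms calprotectin, an abundant protein of neutrophils and monocytes. In whole muscle, fibres, fibroblasts, macrophages and vessels all contribute RNA, and a lower level from fewer cells cannot be told apart from less RNA per cell.

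All 6 S100 genes lie on chromosome 3 (build GRCm38). S100a4 (chr3:90603771-90606045), S100a6, S100a8 and S100a9 sit in a block of S100 genes at chr3:90511034-90695721, and S100a11 and S100a10 sit at chr3:93520488-93564643. Anxa5 is also on chromosome 3 (chr3:36448923-36475894), while Anxa1 is on chromosome 19 (chr19:20373428-20390944), Anxa2 on chromosome 9 (chr9:69453620-69491795) and Anxa3 on chromosome 5 (chr5:96793339-96845966). The promoters of S100a4, S100a11, Anxa1 and Anxa2 are shown because S100a4 had the largest genotype difference of the 10 genes and the others belong to the annexin complexes described below. Each sequence is the coding strand of the 250 bases before the RefSeq start (GRCm38.p6), 5′ to 3′, and capitals mark TGANTCA, the pattern of AP-1 sites, and TATAAA, the core promoter box.
S100a4, chr3:90603520-90603769, plus strand: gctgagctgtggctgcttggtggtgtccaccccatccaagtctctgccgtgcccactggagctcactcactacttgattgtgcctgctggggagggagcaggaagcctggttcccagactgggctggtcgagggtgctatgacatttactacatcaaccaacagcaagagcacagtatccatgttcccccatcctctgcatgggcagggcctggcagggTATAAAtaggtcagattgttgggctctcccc
S100a11, chr3:93520246-93520495, plus strand: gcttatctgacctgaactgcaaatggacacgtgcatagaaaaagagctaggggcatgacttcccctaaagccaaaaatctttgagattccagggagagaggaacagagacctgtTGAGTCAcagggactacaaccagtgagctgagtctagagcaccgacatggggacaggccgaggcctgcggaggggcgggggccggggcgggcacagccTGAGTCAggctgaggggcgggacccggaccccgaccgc
Anxa1, chr19:20390672-20390921, minus strand: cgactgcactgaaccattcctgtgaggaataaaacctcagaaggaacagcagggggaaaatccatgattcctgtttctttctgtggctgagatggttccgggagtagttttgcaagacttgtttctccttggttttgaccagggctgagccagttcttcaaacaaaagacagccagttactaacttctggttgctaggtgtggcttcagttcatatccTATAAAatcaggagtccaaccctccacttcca
Anxa2, chr9:69453433-69453682, plus strand: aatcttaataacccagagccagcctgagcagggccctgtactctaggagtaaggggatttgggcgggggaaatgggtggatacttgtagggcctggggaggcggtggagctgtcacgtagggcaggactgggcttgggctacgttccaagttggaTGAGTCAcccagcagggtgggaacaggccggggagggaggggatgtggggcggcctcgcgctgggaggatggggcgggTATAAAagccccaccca
Of the 10 genes, 8 had a promoter in the RefSeq table and S100a10 and Anxa3 did not. TGANTCA, searched on both strands, occurred in 2 of the 8, with its first base 136 and 38 bases before the start in S100a11 and 95 bases before it in Anxa2, against 6.75% of all 32851 promoters of this length. TATAAA occurred in 4 of the 8, 31 bases before the start in S100a4, 30 in S100a8, 32 in Anxa1 and 17 in Anxa2, against 12.4% of all promoters. GGGCGG, the GC box, not marked in the sequences, occurred in 3 of the 8 (S100a9, S100a11 and Anxa2), against 32.7% of all promoters. These are matches of letters, chosen after the sequences were seen, and no binding was measured.

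At both ages, 7 of the 10 genes were higher in Col6a2-/- than in WT muscle: S100a4, S100a6, S100a10, S100a11, Anxa1, Anxa2 and Anxa5. S100a8, S100a9 and Anxa3 did not pass the test at either age. Differences are Col6a2-/- minus WT on the log2(TPM + 1) scale from limma, with sexes weighted equally, and a gene is called at a Benjamini-Hochberg adjusted p under 0.05 over all 12817 genes. At 5 weeks 25.4% of all genes were called, 23.2% in the higher direction, and at 25 weeks 4.7% were called, 4.47% higher. The median difference of the 10 genes was 0.72 at both ages, beside 0.15 at 5 weeks and 0.08 at 25 weeks over all tested genes. Relative to those medians, the 7 called genes were higher by 0.52 (S100a6) to 1.45 (S100a4) at 5 weeks and by 0.54 (S100a11) to 1.28 (S100a4) at 25 weeks. Of all calls, 91.6% at 5 weeks and 95.0% at 25 weeks were in the higher direction. With TPM rescaled by size factors these shares were 51.1% and 58.1%, and the same 7 genes were called higher, with S100a9 as an eighth at 25 weeks. S100a9 passed the filter only through Col6a2-/- mice (below), so that call is no support for a genotype difference. The test of whether the genotype difference changed with age, averaged over sexes, called 0 of 10 (background 0.492%). That of a change with sex, averaged over ages, called 0 of 10 (background 0.0156%). Unadjusted, 0 of the 10 had a limma p under 0.05 in either (7.01% and 1.61% of all genes did). The averages can hide opposite patterns: for S100a6 females differed by 0.94 and males by 0.39 at 5 weeks, whereas at 25 weeks the values were 0.48 for females and 1.11 for males.

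**Figure D1:**
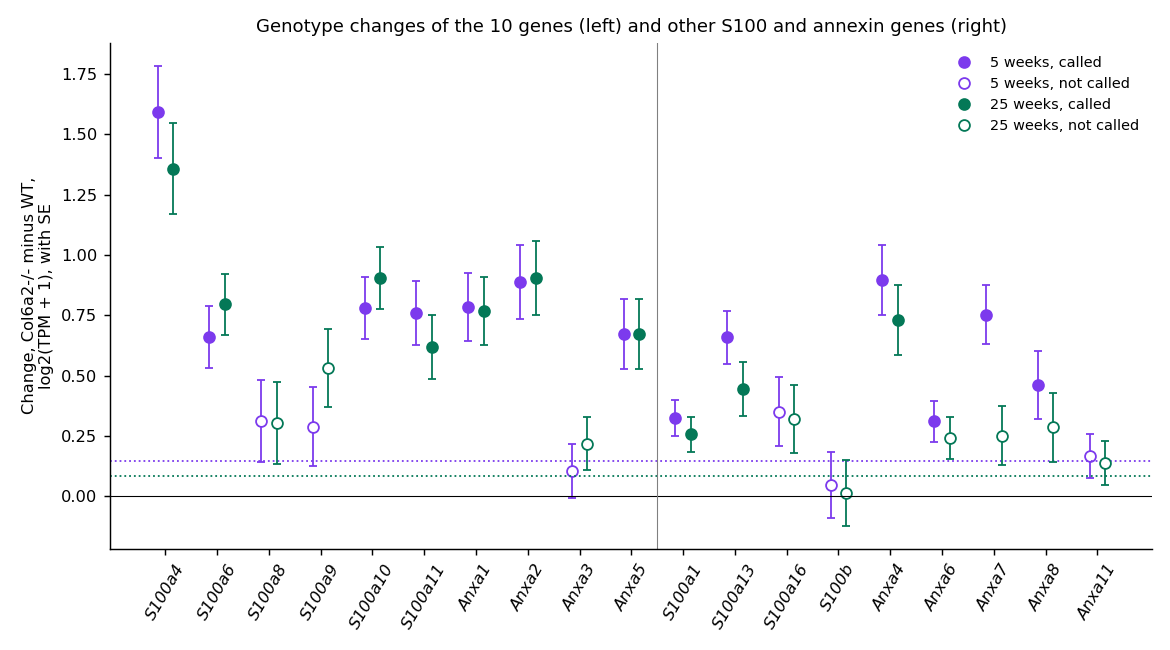
Genotype difference of each gene (log2(TPM + 1), Col6a2-/- minus WT, mean and SE from limma, 8 mice per genotype and age) at 5 weeks (purple) and 25 weeks (green); filled points were called and dotted lines mark the median of all tested genes. The same 7 of the 10 genes on the left were called at both ages, with S100a4 highest at 1.59 and 1.36. Of the 9 other family genes on the right 6 were called at 5 weeks and 3 at 25 weeks. The 6 include Anxa8, which passed the filter only through Col6a2-/- mice.

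S100a4, also known as fibroblast-specific protein, binds non-muscle myosin and is expressed by fibroblasts and macrophages. At 5 weeks its level was 8.37, 10.1, 7.93 and 9.80 TPM in the 4 WT females and 14.4, 8.87, 28.9 and 14.9 TPM in the 4 WT males. In Col6a2-/- mice of that age it was 43.0, 50.7, 35.0 and 20.0 TPM in females and 52.8, 40.7, 37.5 and 32.8 TPM in males. Within each sex every Col6a2-/- mouse was above every WT mouse, although the lowest Col6a2-/- female, replicate 4, was below the highest WT male. At 25 weeks the level was 11.4, 13.1, 18.9 and 12.0 TPM in WT females, 8.81, 8.88, 5.38 and 9.93 TPM in WT males, 24.0, 28.9, 18.9 and 40.2 TPM in Col6a2-/- females and 39.0, 27.4, 28.5 and 26.7 TPM in Col6a2-/- males. The genotypes did not overlap at that age either, but WT female 3 and Col6a2-/- female 3 came within rounding of each other at 18.9 TPM. The difference was 1.59 (SE 0.19, limma adjusted p = 6.69e-07) at 5 weeks and 1.36 (SE 0.19, adjusted p = 0.000135) at 25 weeks. These placed S100a4 above 99.7% and 99.9% of all tested genes. Over the 8 groups its mean ran from 40.9 ± 8.53 TPM in 5-week Col6a2-/- males (SD, n = 4) to 8.25 ± 1.98 TPM in 25-week WT males, and of the 7 pairs of neighbours in that order only 25-week and 5-week WT females had ranges that did not overlap.

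S100a6, or calcyclin, is found in dividing cells and fibroblasts and binds several annexins. In 5-week WT mice it was at 31.3, 29.2, 31.5 and 33.2 TPM in females and 43.3, 37.2, 49.2 and 45.9 TPM in males. Col6a2-/- mice of that age had 53.5, 96.8, 65.9 and 39.6 TPM in females and 77.4, 58.0, 51.9 and 46.2 TPM in males. Females of the genotypes did not overlap, and males did. At 25 weeks WT females had 40.5, 44.1, 47.2 and 39.7 TPM, WT males 26.1, 27.2, 25.5 and 31.9 TPM, Col6a2-/- females 58.4, 61.1, 54.5 and 66.5 TPM and Col6a2-/- males 80.7, 48.5, 59.3 and 58.6 TPM. All 8 Col6a2-/- mice were then above all 8 WT mice, the nearest being a male at 48.5 and a WT female at 47.2 TPM. The difference was 0.66 (SE 0.13, limma adjusted p = 0.000388) at 5 weeks and 0.80 (SE 0.13, adjusted p = 0.000523) at 25 weeks.

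S100a10 and Anxa2 encode the subunits of a complex that ties membranes to the cytoskeleton and binds plasminogen at the cell surface. For S100a10 at 5 weeks, WT females had 24.5, 27.4, 35.1 and 36.6 TPM, WT males 47.5, 38.7, 59.6 and 45.4 TPM, Col6a2-/- females 64.8, 75.2, 65.3 and 37.7 TPM and Col6a2-/- males 95.0, 63.9, 67.8 and 72.6 TPM. At 25 weeks the same order of groups gave 24.4, 27.2, 32.3 and 27.2 TPM, then 18.3, 13.7, 16.5 and 23.2 TPM, then 43.7, 42.2, 36.4 and 49.0 TPM, and last 47.0, 35.4, 45.6 and 40.0 TPM. Genotypes did not overlap within either sex at either age, and at 25 weeks all 8 Col6a2-/- mice were above all 8 WT mice. The difference was 0.78 (SE 0.13, limma adjusted p = 5.66e-05) at 5 weeks and 0.90 (SE 0.13, adjusted p = 0.000135) at 25 weeks.

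At 5 weeks Anxa2 was at 16.5, 19.8, 30.0 and 28.6 TPM in WT females, 37.6, 35.4, 43.8 and 40.2 TPM in WT males, 59.1, 63.1, 50.2 and 28.8 TPM in Col6a2-/- females and 96.2, 52.7, 67.0 and 56.1 TPM in Col6a2-/- males. At 25 weeks these groups had 22.7, 22.6, 29.2 and 20.4 TPM, 14.4, 9.31, 13.3 and 17.7 TPM, 34.2, 27.2, 37.1 and 39.5 TPM, and 41.6, 31.9, 29.8 and 33.7 TPM. Males of the genotypes did not overlap at either age, whereas 1 Col6a2-/- female at each age lay below the highest WT female. The difference was 0.89 (SE 0.15, limma adjusted p = 0.000114) at 5 weeks and 0.90 (SE 0.15, adjusted p = 0.00105) at 25 weeks. TPM is scaled for transcript length, so the levels of the partners can be set side by side: the mean ratio of S100a10 to Anxa2 lay between 1.13 and 1.33 in all 8 groups, with SDs of 0.101 to 0.233 (n = 4).

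S100a11 and Anxa1 were lower in level. S100a11 encodes calgizzarin, which binds annexin A1, and annexin A1 is a glucocorticoid-induced protein that damps inflammation through formyl peptide receptors. At 5 weeks S100a11 was at 7.52, 6.86, 8.89 and 11.2 TPM in WT females, 11.9, 10.5, 14.6 and 13.03 TPM in WT males, 20.4, 22.6, 19.4 and 10.6 TPM in Col6a2-/- females and 25.1, 17.7, 18.0 and 15.3 TPM in Col6a2-/- males. At 25 weeks these groups had 8.78, 8.59, 8.96 and 7.77 TPM, 7.39, 3.79, 4.28 and 6.60 TPM, 12.4, 12.3, 10.8 and 12.7 TPM, and 12.1, 9.59, 9.45 and 8.77 TPM. Its difference was 0.76 (SE 0.13, limma adjusted p = 0.000129) and 0.62 (SE 0.13, adjusted p = 0.00728). The lowest Col6a2-/- library at 5 weeks, female 4 at 10.6 TPM, lay below 1 WT female and 3 WT males, and at 25 weeks the genotypes did not overlap within either sex.

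Anxa1 at 5 weeks was at 11.6, 13.6, 13.4 and 13.3 TPM in WT females, 18.1, 12.1, 18.2 and 16.1 TPM in WT males, 24.3, 35.7, 27.0 and 15.2 TPM in Col6a2-/- females and 35.4, 26.2, 22.0 and 24.5 TPM in Col6a2-/- males. At 25 weeks these groups had 13.9, 16.7, 18.2 and 13.7 TPM, 15.9, 9.73, 8.16 and 14.7 TPM, 28.2, 24.1, 20.8 and 27.0 TPM, and 27.4, 18.8, 22.5 and 22.1 TPM. The differences were 0.79 (SE 0.14, limma adjusted p = 0.000177) and 0.77 (SE 0.14, adjusted p = 0.002). At 25 weeks every Col6a2-/- mouse had at least 18.8 TPM of Anxa1 and every WT mouse at most 18.2 TPM, and genotypes did not overlap within either sex at 5 weeks. The ratio of S100a11 to Anxa1 was less even than that of the first pair. Its group means were 0.665 to 0.783 at 5 weeks and 0.442 to 0.551 at 25 weeks, lower at 25 weeks in every combination of genotype and sex.

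Anxa5 encodes the annexin used as a probe for phosphatidylserine on dying cells. At 5 weeks it was at 17.1, 22.7, 25.3 and 25.9 TPM in WT females, 37.4, 27.4, 30.9 and 32.3 TPM in WT males, 51.7, 59.8, 42.0 and 21.8 TPM in Col6a2-/- females and 63.1, 42.5, 45.4 and 35.1 TPM in Col6a2-/- males. In each sex 1 Col6a2-/- mouse, replicate 4, was below the highest WT mouse. At 25 weeks the same groups had 24.6, 22.9, 24.6 and 20.4 TPM, 15.1, 12.5, 12.5 and 18.1 TPM, 30.1, 33.5, 29.4 and 35.6 TPM, and 33.5, 24.0, 28.2 and 24.8 TPM, and the genotypes did not overlap within either sex. The difference was 0.67 (SE 0.15) at both ages, with limma adjusted p = 0.00132 at 5 and 0.00763 at 25 weeks. Anxa3 binds phospholipids like the other annexins and is abundant in neutrophils. It was at 12.5 ± 2.75 and 13.6 ± 3.26 TPM in WT and Col6a2-/- mice at 5 weeks (SD, n = 8) and at 10.2 ± 1.88 and 12.1 ± 2.39 TPM at 25 weeks. Its differences of 0.10 (SE 0.11, limma adjusted p = 0.503) and 0.22 (SE 0.11, adjusted p = 0.282) did not pass the test, and the first took the other sign when TPM was rescaled by size factors (-0.07) or by quantiles (-0.05). In 25-week males every Col6a2-/- mouse (10.7 to 12.9 TPM) was above every WT mouse (7.40 to 10.5 TPM). The difference there was 0.39 (SE 0.16, limma adjusted p = 0.169). Whether Anxa3 differed from the other annexins was not tested.

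S100a8 and S100a9 were near the lower limit of measurement. S100a8 reached 1 TPM in 7 libraries and S100a9 in 8. In WT mice S100a8 did so only in female 1 and male 1 of 25 weeks, and S100a9 only in female 1 of 25 weeks. Both genes thus passed the filter through Col6a2-/- mice, and their genotype tests are no support for a difference. S100a8 was at a median of 0.344 TPM over the 32 libraries, with 2.06 TPM at most and 0 in 4 of them, and S100a9 at a median of 0.583 TPM, with 2.86 TPM at most and 0 in 1. Median coverage was 2.12 and 4.32 for this pair, with 10.9 and 21.4 at most. For the other 8 genes the median was 99.7, with 6.89 to 472 over all libraries. In 5-week WT, 25-week WT, 5-week Col6a2-/- and 25-week Col6a2-/- mice, S100a9 was at 0.370 ± 0.214, 0.508 ± 0.338, 0.743 ± 0.660 and 1.21 ± 0.696 TPM (SD, n = 8). Groups overlapped at both ages. Its difference was 0.29 (SE 0.16, limma adjusted p = 0.187) at 5 weeks and 0.53 (SE 0.16, adjusted p = 0.0534) at 25 weeks, and over the alternatives and left-out libraries the latter adjusted p ran from 0.0299, without WT female 1, to 0.140, without WT female 4. With a pseudocount of 0.1 the S100a9 differences were 0.71 and 1.19, and neither passed. The differences of S100a8 were 0.31 (SE 0.17, adjusted p = 0.177) and 0.30 (SE 0.17, adjusted p = 0.335), and 0.78 and 0.67 with the smaller pseudocount, neither of which passed. These average unlike sexes. For S100a9 females and males differed by -0.09 and 0.67 at 5 weeks and by 0.64 and 0.43 at 25 weeks. For S100a8 the values were 0.10 and 0.52 at 5 weeks and 0.64 and -0.03 at 25 weeks, and none of these passed for either gene. The neutrophil markers were near 0: Ly6g was listed at 0 in all 32 libraries, 1 of 12 markers passed the filter, and their sum at 5 weeks had a median of 0.951 TPM in WT (0.675 to 1.53) and 1.62 TPM in Col6a2-/- mice (1.07 to 2.28). At 25 weeks it was 0.859 TPM (0.672 to 3.21) and 1.51 TPM (1.27 to 3.12). The part of neutrophils in the values of S100a8 and S100a9 was not tested.

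**Figure D2:**
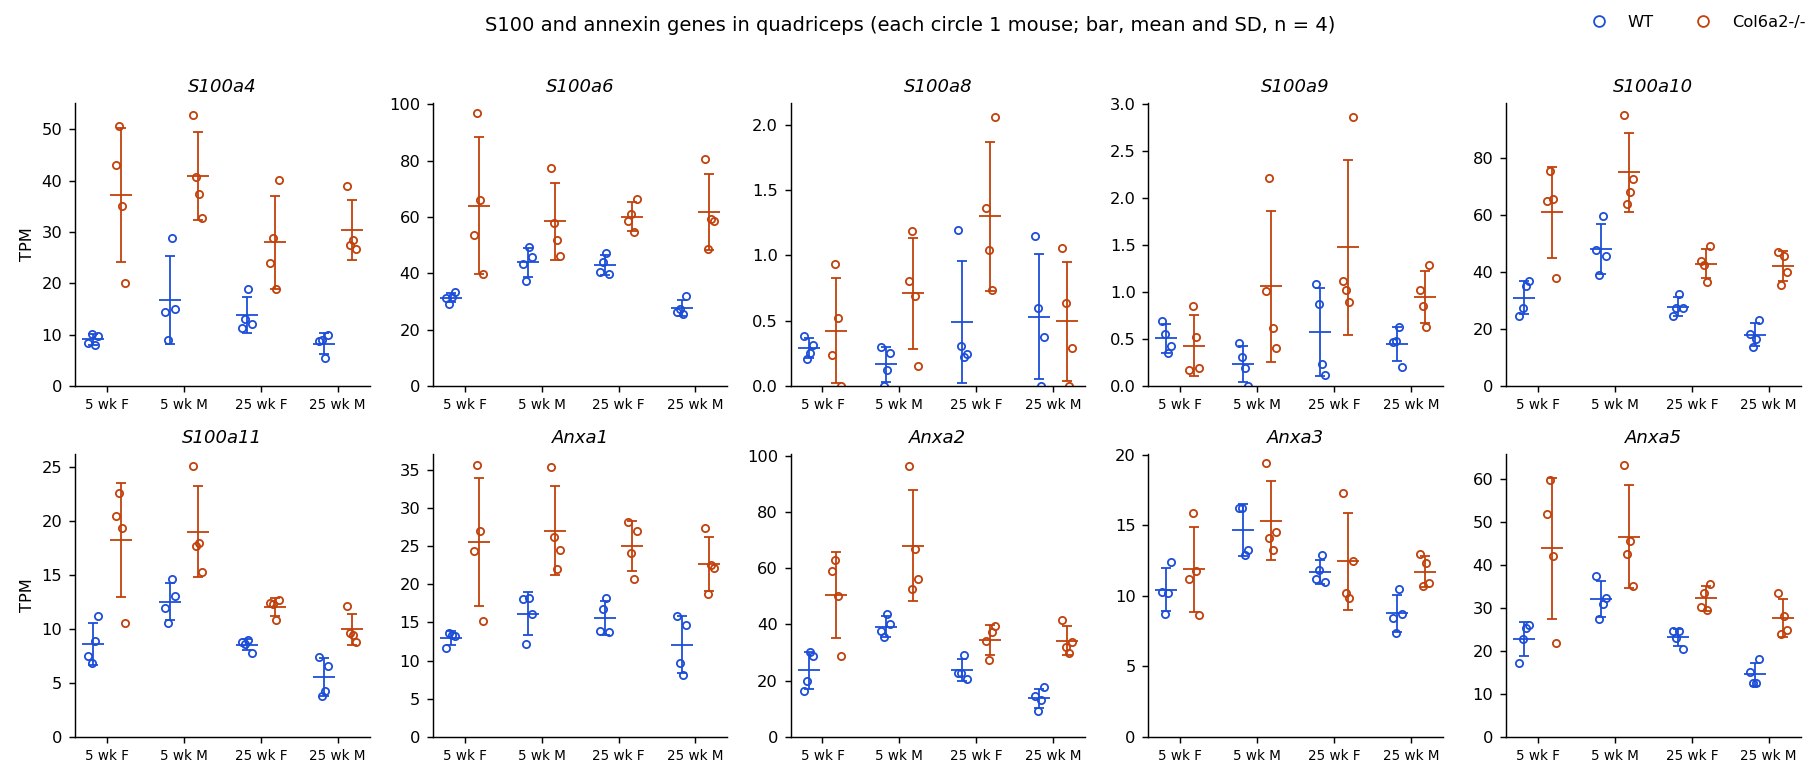
TPM of each of the 10 genes in every mouse (circles), with mean and SD of 4 mice, by age and sex, WT in blue and Col6a2-/- in orange. The Col6a2-/- circles of S100a4 lie above the WT circles of the same age and sex in all 4 comparisons, those of Anxa3 mostly overlap, and S100a8 and S100a9 stay under 3 TPM.

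Within sexes, the genotype difference was called for the same 7 genes in 5-week females (7 of 10; background 12.9%, 12.3% higher) and in 25-week males (7 of 10; background 3.03%, 2.91% higher). In 5-week males S100a4, S100a10, Anxa1 and Anxa2 were called (4 of 10, background 5.03%, 4.55% higher), and S100a6, S100a11 and Anxa5 had differences of 0.39, 0.55 and 0.50. An unadjusted limma p under 0.05 was found for 9 of the 10, and for 19.6% of all genes. The 9 include S100a8 and S100a9, which passed the filter through Col6a2-/- mice, so their part of the count is no support. None was called in 25-week females (background 0.0078%), where the same 7 genes had differences of 0.45 to 0.94. There 9 of the 10, all but Anxa3, had an unadjusted limma p under 0.05, as had 4.85% of all genes. S100a8 and S100a9 are again among the 9, and their part of that count is no support either. At 5 weeks every Col6a2-/- mouse was above every WT mouse of its sex for 4 of the 10 genes among females (8.53% of all genes) and for 5 among males (9.32%). At 25 weeks this held for 6 of the 10 among females (3.8%) and for 8 among males (13.9%), the same 7 genes and Anxa3. With both sexes pooled the count was 0 at 5 weeks (1.18%) and 4 at 25 weeks (0.663%), the latter S100a4, S100a6, S100a10 and Anxa1. In 5-week males the count of called genes fell to 1, S100a4, without WT male 2, WT male 4 or Col6a2-/- male 1, and to 2 without WT male 1 or Col6a2-/- male 3. In 25-week males it was 4 without WT male 2, WT male 3 or Col6a2-/- male 1. In 5-week females it was 1 when the spread was estimated from those 8 libraries alone.

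Markers of several other cell types differed with genotype in the same libraries, beside 23.2% of all genes called higher at 5 weeks and 4.47% at 25 weeks. All 12 macrophage markers were called higher at 5 weeks (median difference 1.08) and 8 of 12 at 25 weeks (0.71). Their summed level was 74.1 to 125 TPM in WT and 113 to 390 TPM in Col6a2-/- mice at 5 weeks, and 48.6 to 129 and 125 to 233 TPM at 25 weeks. Of 12 fibroblast markers, 6 were higher at each age (median differences 0.29 and 0.54). Of 6 tested markers of muscle progenitors and regenerating fibres, 5 were higher at 5 weeks (median 1.75) and 1 at 25 weeks (0.31). The summed level of the 7 listed ran from 109 to 150 TPM in WT and from 103 to 227 TPM in Col6a2-/- mice at 5 weeks. At 25 weeks that sum had a lower median in Col6a2-/- mice, 100 TPM (97.7 to 129), than in WT, 116 TPM (93.0 to 129). None of the fibroblast list was called lower, and its sum ran from 1025 to 1759 TPM in WT against 879 to 2440 TPM in Col6a2-/- mice at 5 weeks, and from 497 to 921 against 919 to 1408 TPM at 25 weeks. Of the 8 mature fibre markers, 4 were called lower at 5 weeks (2.14% of all genes were): Ckm (-0.33), Myh4 (-0.43), Tnnt3 (-0.32) and Pygm (-0.39). The other 4 were not called. None was called at 25 weeks. The median of the list was -0.26 at 5 and -0.19 at 25 weeks, and its summed level had a median of 30038 TPM in WT and 24739 TPM in Col6a2-/- mice at 5 weeks, and of 26220 and 22542 TPM at 25 weeks. Endothelial markers were called higher for 3 of 8 genes at 5 weeks, with a list median of 0.20 beside 0.15 for all genes, and for 0 at 25 weeks. None of the 5 adipocyte markers was called, with medians of 0.41 at 5 and 0.67 at 25 weeks (1.21 in 25-week males). Smooth muscle markers were higher for 1 of 5 at 5 weeks (medians 0.05 and 0.08), and no Schwann cell (0.27 and 0.003), tenocyte (-0.09 and 0.27), mast cell (0.26 and 0.28) or erythroid marker (0.01 and 0.18) was called at either age. Macrophages and fibroblasts both express S100a4, S100a6 and most annexins, and the part of any of these cells in the differences above was not tested.

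Other S100 and annexin genes were described from lists of the family. Of 11 other S100 genes listed, 10 were in the tables and 4 passed the filter. S100a1, the S100 protein of striated muscle that acts on calcium release, was at 43.9 ± 3.24 TPM in WT and 55.5 ± 6.55 TPM in Col6a2-/- mice at 5 weeks (SD, n = 8) and was called higher at both ages, by 0.32 (SE 0.07) and 0.26 (SE 0.07). S100a13 was called higher by 0.66 and 0.45, whereas S100a16 (0.35 and 0.32) and S100b (0.05 and 0.01) did not pass. Of 8 other annexins, 5 passed the filter. Anxa4 was higher by 0.90 (limma adjusted p = 4.8e-05) and 0.73 (adjusted p = 0.00362), from 5.52 ± 1.36 to 11.4 ± 3.73 TPM at 5 weeks. Anxa6, a membrane-repair annexin of muscle and the annexin with the highest level here in WT mice, was at 58.4 ± 7.22 and 73.1 ± 11.9 TPM at 5 weeks. It was called higher at 5 weeks by 0.31, as were Anxa7 by 0.75 and Anxa8 by 0.46, and none of these 3 was called at 25 weeks (0.24, 0.25 and 0.29). Anxa8 was at most 0.865 TPM in WT mice at 5 weeks and 0.931 TPM at 25 weeks. It thus passed the filter only through Col6a2-/- mice, and its call is no support for a genotype difference. Anxa11 was not called (0.17 and 0.14).

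Proteins that work with the 10 genes' products were taken from 3 lists, to be read beside the 23.2% of all genes called higher at 5 weeks and 4.47% at 25 weeks. In the plasminogen system of the cell surface, 3 of 6 tested genes were higher at 5 weeks: Eno1 by 0.57, Plat by 0.53 and Plaur, the urokinase receptor, by 0.32. At 25 weeks Eno1 (0.48) and Plaur (0.31) were called. Eno1 has a near-identical copy, so its level is uncertain. Of 12 membrane repair genes, 7 were higher and 1, Capn3, lower (-0.30) at 5 weeks. The smallest adjusted p belonged to Ahnak2 (0.81), Myof (0.64) and Capn2 (0.46), and at 25 weeks 5 of 12 were higher, among them Myof by 0.56, Ahnak by 0.50 and Ahnak2 by 0.66. AHNAK proteins bind the S100A10 and annexin A2 complex, and myoferlin is a relative of dysferlin. Of 8 receptors of S100 proteins and annexin A1, 5 passed the filter, and Ager, Fpr1 and Fpr2 did not. Cd14 (0.67), Tlr4 (0.95) and Cd36 (0.39) were higher at 5 weeks, and Cd14 (0.39) at 25 weeks.

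S100a10, S100a11, Anxa2 and Anxa5 were lower at 25 than at 5 weeks in WT (4 of 10 called; 19.8% of all genes, 15.3% lower) and in Col6a2-/- mice (4 of 10; 34.2% of all genes, 28.8% lower), the latter a share near the background. Whether age differences differed between the genes was not tested. In WT the differences, 25 minus 5 weeks, were -0.76 (SE 0.13, limma adjusted p = 0.000102) for S100a10, -0.54 (SE 0.13, adjusted p = 0.00451) for S100a11, -0.73 (SE 0.15, adjusted p = 0.00115) for Anxa2 and -0.53 (SE 0.15, adjusted p = 0.01) for Anxa5. These WT differences average unlike sexes. In WT females the mean at 5 and 25 weeks was 30.9 and 27.8 TPM for S100a10, 8.62 and 8.53 TPM for S100a11, 23.7 and 23.7 TPM for Anxa2 and 22.8 and 23.1 TPM for Anxa5. In WT males it was 47.8 and 17.9 TPM, 12.5 and 5.51 TPM, 39.2 and 13.7 TPM, and 32.01 and 14.5 TPM in the same order of genes. The test of that difference between the sexes is given with the sex comparisons. In Col6a2-/- mice the age differences were -0.63, -0.68, -0.71 and -0.53, with limma adjusted p from 0.000254 to 0.00588, and the mean of each of the 4 genes was lower at 25 weeks in both sexes. S100a4 (-0.16 in WT and -0.39 in Col6a2-/-), S100a6 (-0.10 and 0.03), Anxa1 (-0.09 and -0.11) and Anxa3 (-0.26 and -0.15) did not pass in either genotype. Nor did S100a8 (0.26 and 0.25) and S100a9 (0.12 and 0.37). The median over the 10 genes was -0.21 in WT and -0.27 in Col6a2-/- mice, beside -0.08 and -0.14 for all tested genes. Of all calls 22.6% in WT and 15.8% in Col6a2-/- mice were higher at 25 weeks, and 47.4% and 48.5% with size factors; the same 4 genes were called lower under that scaling. Inferred depth was lower at 25 weeks in WT (above), and fibroblast markers were lower for 5 of 12 genes in each genotype and macrophage markers for 2 of 12 in WT and 11 of 12 in Col6a2-/- mice. Lower too were 2 of 6 progenitor and regenerating fibre markers in WT (median -0.18) and 4 of 6 in Col6a2-/- mice (-2.04), 2 of 5 and 5 of 5 Schwann cell markers, 2 of 8 and 4 of 8 endothelial markers and 2 of 5 tenocyte markers in each genotype. The part of these in the age differences was not tested.

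Averaged over ages and genotypes, the test of sex called 0 of the 10 genes (background 3.05%), and 0 had an unadjusted limma p under 0.05 (13.2% of all genes). In WT the mean of 8 of the 10 genes, all but S100a8 and S100a9, was higher in males at 5 weeks and in females at 25 weeks. S100a9 had a higher mean in females at both ages, and S100a8 in females at 5 and in males at 25 weeks. Comparisons of sex within WT were added after the data were seen. At 5 weeks every WT male was above every WT female for S100a6, S100a10, Anxa2, Anxa3 and Anxa5 (5 of 10 genes; 17% of all genes). At 25 weeks every WT male was below every WT female for S100a4, S100a6, S100a10, S100a11, Anxa2, Anxa3 and Anxa5 (7 of 10; 14.1% of all genes). Anxa2 was at 23.7 ± 6.63 TPM in females and 39.2 ± 3.62 TPM in males at 5 weeks, and at 23.7 ± 3.83 and 13.7 ± 3.44 TPM at 25 weeks (SD, n = 4). S100a6 went from 31.3 ± 1.61 to 42.9 ± 3.43 TPM in females and from 43.9 ± 5.07 to 27.7 ± 2.90 TPM in males. The sex difference at 25 weeks minus that at 5 weeks was called for those 7 genes (background 2.53%, 2.38% lower). It was -1.51 (SE 0.31, limma adjusted p = 0.0137) for Anxa2, -1.24 (SE 0.26, adjusted p = 0.0155) for S100a10 and -1.08 (SE 0.25, adjusted p = 0.0239) for S100a6, with a median of -0.27 over all tested genes. The sex difference within one age was called for none of the 10 in WT at 5 weeks (background 1.86%), where 7 had an unadjusted limma p under 0.05 (17.1% of all genes), or at 25 weeks (background 1.22%), where 7 did (16% of all genes). Without Col6a2-/- female 2 of 5 weeks, which is in neither comparison but enters the estimate of the spread, 2 were called at 5 and 1 at 25 weeks, and without Col6a2-/- female 4 it was 2 and 4. Without both it was 4 and 5.

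The count of 7 depended on single libraries, on the scaling and on the filter, without which it was 2. S100a4 lost its call without any 1 of 21 of the 32 libraries. It also lost it with a replicate block (limma adjusted p = 0.0545 against 0.0448), where 6 were called. Without WT female 1, WT female 2 or WT male 1 at 5 weeks the count was 2. The count was also 2 without WT female 3 or WT male 2 at 25 weeks. It was 3 without WT female 1 or 2 at 25 weeks, and 4 without WT male 3 at 5 weeks or WT male 1 or 3 at 25 weeks. Transcripts of the mitochondrial chromosome and of Rn7s genes took 62.5 to 71.6% of TPM in 25-week WT males and 62.9 to 65.7% in females of that age. At 5 weeks they took 59.4 to 63.5% in WT males and 63.1 to 66.2% in WT females. With those transcripts left out of the total, 1 of the 7, Anxa2, was called. The 7 differences kept their sign: that of Anxa2 went from -1.51 to -1.28, of S100a10 from -1.24 to -0.998 (limma adjusted p = 0.0546) and of S100a6 from -1.08 to -0.84 (adjusted p = 0.087), while the median of all genes went from -0.27 to -0.09. Macrophage markers summed to 74.1 to 78.1 TPM in WT females and 81.7 to 125 TPM in WT males at 5 weeks, and to 74.3 to 129 and 48.6 to 77.6 TPM at 25 weeks. In this comparison 1 of 12 macrophage markers was called lower (median -0.90), as were 2 of 12 fibroblast (-0.67) and 2 of 8 endothelial markers (-0.57). None was called of the Schwann cell (-0.96), tenocyte (-1.13), mast cell (-0.86), erythroid (-0.79), smooth muscle (-0.56), adipocyte (-0.53) or mature fibre markers (-0.24). The part of these cells was not tested. In Col6a2-/- mice the same comparison called 0 of 10 (background 0.0702%), with an unadjusted limma p under 0.05 for 2 of them (4.86% of all genes). The 2 were S100a8 and S100a9, which are near the lower limit of measurement and not among the 7 genes called in WT. The test of the difference between the genotypes called 0 of 10 (background 0%), with an unadjusted limma p under 0.05 for 6 of the 10 (4.26% of all genes). Among the 6, S100a8 (-1.09) had the opposite sign to S100a4 (1.36) and S100a6 (1.18), so the count does not stand for a shared direction. An opposite order of the sexes in WT alone is therefore not shown.

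**Figure D3:**
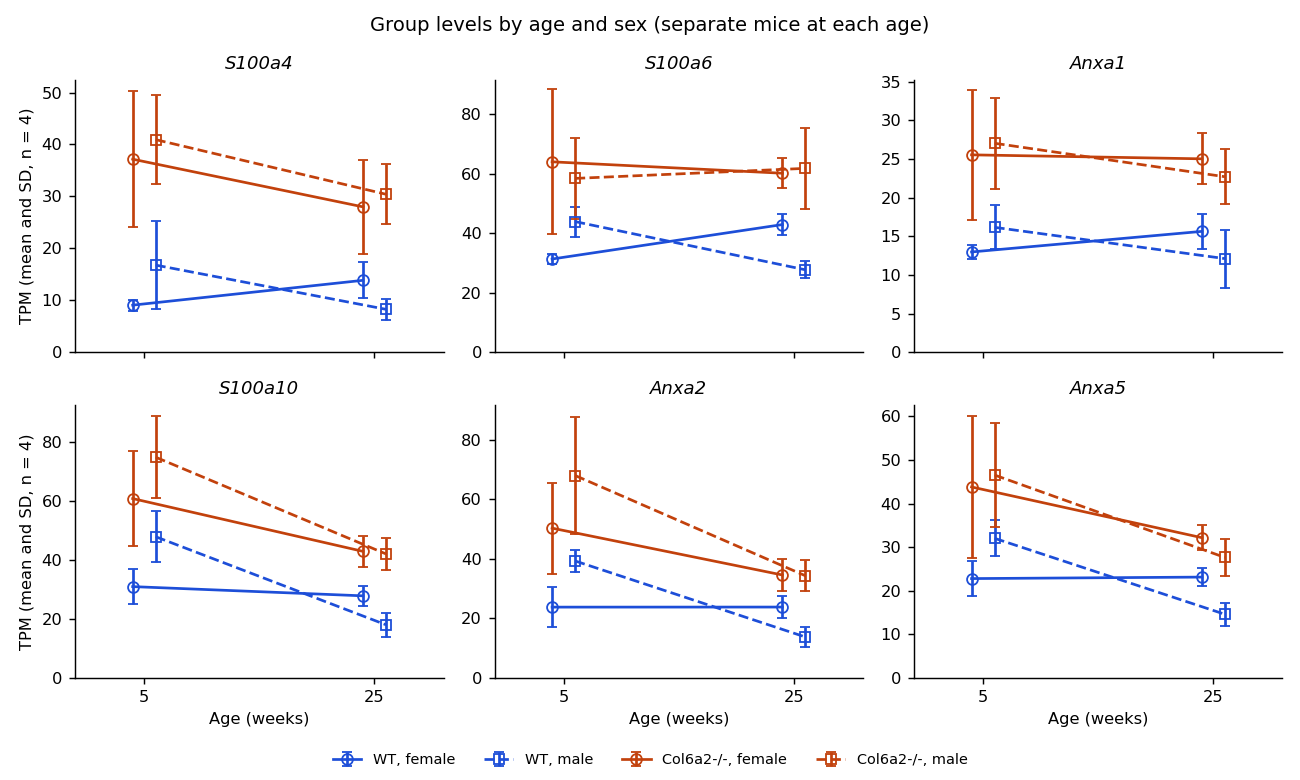
Mean TPM and SD (n = 4) of 6 genes at 5 and 25 weeks, WT in blue and Col6a2-/- in orange, females as circles with solid lines and males as squares with dashed lines; the lines join separate mice. In WT the male and female lines cross for all 6 genes, while Anxa2 in Col6a2-/- mice falls in both sexes.

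Variation between mice of the same group was used to compare the complex partners, since group differences do not enter it. After the mean of each group was removed, S100a10 and Anxa2 had r = 0.853 over 32 libraries (rho 0.809; permutation of mice within groups, p = 4e-05, 0.00012 adjusted over 3 pairs), and 0.796 without the 2 libraries farthest from the median. S100a11 and Anxa1 had r = 0.824 (rho 0.778; permutation p = 1e-04, adjusted 0.00015), and 0.764 without 2 libraries. S100a8 and S100a9 had r = 0.611 (rho 0.554, permutation p = 0.00139, adjusted 0.00139), and 0.600 without 2. Over 5 alternative settings, that one included, r of S100a8 with S100a9 ran from 0.407 to 0.600. The lowest was 0.772 for S100a10 with Anxa2 and 0.731 for S100a11 with Anxa1. With left-out libraries included, the adjusted permutation p for S100a8 with S100a9 was at most 0.0311. Among 12816 genes Anxa2 ranked 6 by its r with S100a10 and S100a10 ranked 4 by its r with Anxa2. Anxa1 ranked 29 for S100a11 and S100a11 ranked 39 for Anxa1, and S100a9 ranked 215 for S100a8 and S100a8 ranked 29 for S100a9. Beside its r of 0.824 with Anxa1, S100a11 had r = 0.843 with S100a10, 0.841 with Anxa5 and 0.827 with Anxa2. The 28 pairs among the 8 genes other than S100a8 and S100a9 had a median r of 0.736 (0.214 to 0.853). The 16 pairs of S100a8 or S100a9 with those 8 genes had a median r of 0.224 (-0.01 to 0.531), all below the 0.611 of S100a8 with S100a9. The libraries share depth and the makeup of the tissue section, which can move many genes together; their part was not tested.

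**Figure D4:**
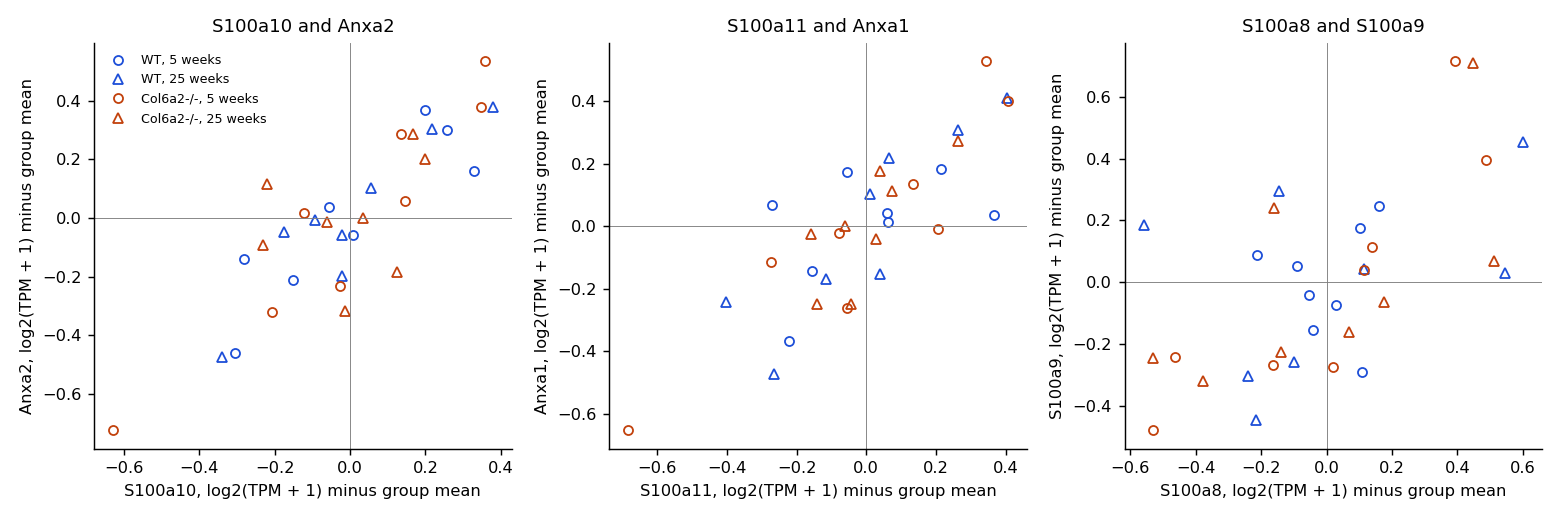
Deviation of each mouse from its group mean, log2(TPM + 1), for the 3 pairs of complex partners (circles 5 weeks, triangles 25 weeks, WT in blue, Col6a2-/- in orange). Points follow a line most closely for S100a10 with Anxa2 (r = 0.853) and least for S100a8 with S100a9 (r = 0.611).

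Over all 32 libraries, group differences included, the genes most like each member by Pearson's r of log2(TPM + 1) were the following. For S100a10 they were Thbs3 (r = 0.960), Bgn (0.955) and Stab1 (0.954), and Anxa2 had the same 3 genes, led by Stab1 (0.961). S100a11 was most like Stab1 (0.957), Bgn (0.956) and Loxl1 (0.952). Biglycan and thrombospondin 3 are matrix proteins, stabilin 1 is a scavenger receptor of macrophages and endothelium, and Loxl1 is an enzyme of elastic fibre cross-linking. Anxa4 (0.938), Capg (0.936) and Cilp (0.925) were nearest to S100a4, and Capg, an actin-capping protein, was also nearest to S100a6 (0.903) and Anxa1 (0.923). Anxa5 was nearest to Litaf (0.958), Anxa3 to Emilin2 (0.851), S100a8 to Cfhr2 (0.713) and S100a9 to Ninj1 (0.675).

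Overlapping genes could share reads where strand was not used. S100a4 overlaps Gm42674, which reached 0.424 TPM at most, Anxa2 overlaps Mir3109 (1.34 TPM at most), Anxa3 overlaps Gm42603 (0.471) and Anxa5 overlaps Mir7009 (0.785). The antisense neighbours of Anxa1 and Anxa2 were listed at 0 in all libraries, and the pseudogene S100a11-ps reached 0.00564 TPM.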

How the data were processed

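Quadriceps cryosections of 32 mice were profiled by paired-end RNA sequencing with a TruSeq RNA kit, from RNA of good integrity, per the labels' protocols. The submitters' processing notes name FastQC, MultiQC, Trimmomatic, HISAT2, SAMtools and StringTie and the builds GRCm38 and mm10, without versions. The annotation release and the use of strand are not given in the sources used here. Each deposited table holds 1 library with coverage (signal), FPKM and TPM per gene, as computed by the authors. Rows were summed per gene ID. TPM was analysed as log2(TPM + 1), which understates differences of low genes. FPKM and coverage deposited by the authors served for an alternative and to infer depth, on which no interval could be based. The design allowed for normalised values, so no test for counts was used.

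One limma 3.58.1 model (R 4.3.3, lmFit, then eBayes with trend) with a mean for each of 8 groups was fitted to all 32 libraries and the 12817 genes that reached 1 TPM in 4 or more libraries. All tests were two-sided, with Benjamini-Hochberg adjustment over all genes and a threshold of 0.05. The script was tested on simulated data. Correlations used 100000 permutations within groups. Python 3.11.15, numpy 2.4.6, pandas 2.3.3, scipy 1.17.1 and matplotlib 3.10.9 were used. The members, the gene lists and the tests were chosen with earlier results of these data known. The named genes are all 10 members, the other S100 and annexin genes that passed the filter, up to 3 genes of smallest adjusted p per list and direction, and the 3 genes most like each member. Each library was counted as a separate sample: none was identical to another and the highest correlation between libraries was 0.984. Alternatives covered the pseudocount (0.1), the filter (none, or 5 TPM), 3 scalings, FPKM, the samples fitted, a replicate block and leaving out each library.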

Additional observations from a re-analysis of the deposited data

Results flagged for a closer look

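Of 80 tests of single libraries against the other 3 of their group, 4 found a library far from the rest, and chance gives about 1 in 20. S100a4 was at 39.0 TPM in Col6a2-/- male 1 at 25 weeks, with 26.7 to 28.5 TPM in the others. S100a8 was at 1.19 TPM in WT female 1 at 25 weeks (others 0.223 to 0.306 TPM), and S100a9 at 2.86 TPM in Col6a2-/- female 4 at 25 weeks (others 0.890 to 1.11 TPM). Anxa1 was at 11.6 TPM in WT female 1 at 5 weeks, below the 13.3 to 13.6 TPM of the others.

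The sex difference in WT differed between the ages by the test of the difference itself, on the log2(TPM + 1) scale, for S100a4 (-1.40), S100a6 (-1.08), S100a10 (-1.24), S100a11 (-1.09), Anxa2 (-1.51), Anxa3 (-0.84) and Anxa5 (-1.13). The comparison was added after the data were seen. The call of S100a4 was lost in 21 of 32 fits that left out 1 library and in 6 of 10 alternatives, and without mitochondrial and Rn7s transcripts only Anxa2 was called.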

How the results depend on the processing

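The 7 genes called for genotype at 5 weeks and the 7 at 25 weeks were called in every alternative run and without each of the 32 libraries in turn, with 7 or 8 members called. The 4 genes called lower with age were called in each alternative too, with 4 or 5 members in WT and 4 to 6 in Col6a2-/-. Rescaling moved the median of all genes at 5 weeks from 0.15 to -0.00167 (size factors) or -0.0249 (quantiles), and the share of calls in the higher direction from 91.6% to 51.1% or 45.8%; at 25 weeks that share went from 95.0% to 58.1% or 57.0%. Anxa3 at 5 weeks turned to -0.0740 and -0.0477 under these. With age in WT, S100a6 turned to 0.00328 and 0.0314 and Anxa1 to 0.0140 and 0.0410 with size factors and without mitochondrial and Rn7s transcripts; in Col6a2-/-, Anxa1 turned to 0.0681 (size factors) and 0.0141 (quantiles) and Anxa3 to 0.0217 (size factors). Without single libraries S100a6 with age in Col6a2-/- ran from -0.0680 to 0.144, and S100a8 for sex by age in WT from -0.00244 to 0.380.

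Counts of members moved in the comparisons that follow, and the cause was not tested. Genotype in 5-week females gave 1 with only those libraries fitted. In 5-week males it gave 1 without a filter, 7 without mitochondrial and Rn7s transcripts, 1 with FPKM, and 1 to 6 without single libraries; in 25-week males 4 to 7. Sex in WT gave 2 at each age with only those libraries, 4 at 5 and 5 at 25 weeks without Col6a2-/- females 2 and 4 of 5 weeks, 0 to 2 at 5 weeks and 0 to 4 at 25 weeks without single libraries. Sex by age in WT gave 2 without a filter, 4 with size factors, 3 with quantiles, 1 without mitochondrial and Rn7s transcripts, and 2 to 7 without single libraries.

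The labels give same-numbered samples no shared source, and not every pair correlated: their deviations had r from -0.0612 to 0.234, over 0.1 in 6 of 8 pairs at 5 weeks and 2 of 8 at 25 weeks. In 8 of 16 pairs the correlation was best with their own number, a hint from the data only. With the replicate block, members called were 7 at 5 weeks, 8 at 25 weeks and 6 for sex by age in WT, where S100a4 had an adjusted p of 0.0545 against 0.0448 without the block. FPKM and the 5 TPM filter left S100a8 and S100a9 untested, and their low coverage limits what can be seen of them.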
